A study of Mus musculus with 8 samples.

Results

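Lipid-associated macrophages (LAM) are the macrophages that gather around dying or overfilled fat cells in obese adipose tissue. Here they were nuclei picked out of visceral white adipose tissue by their RNA, and 8539 of 77987 nuclei were members, or 40.2% of the 21235 nuclei with macrophage RNA. A barcode was taken as a nucleus from 1000 unique molecular identifiers (UMIs, the tags that count single RNA molecules) and 300 detected genes upwards, provided that mitochondrial RNA made up no more than 5%. A nucleus was a macrophage nucleus when at least 3 of Adgre1, Csf1r, Mertk, Mrc1, Ctss, Lyz2 and Cd68 had a UMI and the summed UMIs of Adgre1, Csf1r and Mertk exceeded those of Plin1, Plin4 and Cidec (adipocytes), of Pdgfra, Dcn and Col3a1 (progenitors) and of Flt1, Ptprb and Cyyr1 (endothelium). It was a LAM nucleus when at least 2 of the 6 genes Gpnmb, Atp6v0d2, Mmp12, Trem2, Itgax and Myh15 had a UMI and their sum exceeded that of the 5 resident macrophage genes F13a1, Cd163, Timd4, Lyve1 and Vsig4. Nuclei with 3 or more of 6 cell cycle genes (Mki67, Top2a, Cenpe, Cenpf, Dtl, Hells) were dropped. The levels of these genes chose the members, so in nuclei they are described below without a test. The level of the 6 LAM genes in empty droplets, which the gate does not use, was tested along with the shares.

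The study sorted nuclei from frozen visceral fat of 8 mice, 2 in each of 4 groups, and counted their RNA in droplets. In every group, controls included, 1 allele of p21 (Cdkn1a, a cell cycle inhibitor switched on in senescent cells) carried an insert, which the genotype names. The genotypes were p21+/mCherry on a standard diet (mCherry SD, mice rep144 and rep146), p21+/mCherry on a high-fat diet (mCherry HFD, rep128 and rep129), p21+/mCherry-Tert on the high-fat diet (Tert HFD, rep134 and rep136) and p21+/mCherry-TertCi on the high-fat diet (TertCi HFD, rep138 and rep140). Tert encodes the catalytic subunit of telomerase, mCherry is a red fluorescent protein, and the labels do not spell out TertCi. The series' design text speaks of expression from the p21 promoter, of the stromal vascular fraction and of p21+/- mice as high-fat controls, while the labels of the samples name visceral white adipose tissue, nuclei and p21+/mCherry. The sample labels were followed, so what a share of all nuclei covers and the genotype of the high-fat controls rest on them. No group had 2 unmodified p21 alleles by these labels, and the standard diet was given to mCherry mice only, so genotype was compared only on the high-fat diet. The age and sex of the mice are not given in the labels. With 2 mice in a group, p-values rest on the spread between pairs of mice.

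In obesity, macrophages that take up lipid switch on receptors for lipid and debris such as Trem2 and Cd36, lipid droplet coats such as Plin2, lipases, and the acid machinery of the lysosome. Transcription factors of the Mitf and Tfeb family drive lysosomal genes, and cholesterol taken up by such cells leaves through the transporters Abca1 and Abcg1. Resident adipose macrophages, which lie along vessels, express scavenger and homing genes such as Cd163, Lyve1, Timd4 and Folr2.

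The Tert insert could not be seen in LAM nuclei. Their summed UMIs of Tert were 0 and 0 in mCherry SD, 24 and 6 in mCherry HFD, 2 and 0 in Tert HFD and 0 and 0 in TertCi HFD, and over all nuclei it ranged from 11 (Tert HFD rep136) to 390 UMIs (mCherry HFD rep128) among the 8 mice. Cdkn1a had 553, 41, 46, 0, 12 and 3 UMIs in LAM nuclei of the 6 high-fat mice in the order of the mouse numbers. The RNA of the targeted genes therefore gave no check of the genotype labels at this depth.

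Libraries held 23378488 to 139749876 UMIs over all barcodes, and the median nucleus held 1716 (Tert HFD rep136) to 3655 UMIs (mCherry HFD rep128). Of the members, 78.0% came from mCherry HFD rep128, so values are given per mouse and mice, not nuclei, were compared. Members numbered 7 and 13 in mCherry SD, 6659 and 784 in mCherry HFD, 619 and 69 in Tert HFD, and 281 and 107 in TertCi HFD. Of 8536 distinct member barcodes, 3 occurred in more than 1 library. The labels say that tissue was handled in batches of 2 mice in random order but not which mice shared one, so the part of batch in any result was not tested.

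Promoter sequences are shown here for 2 gate genes and 1 lipid-associated gene, because the Mitf family and AP-1 factors named below have known short motifs. RefSeq promoter windows (GRCm38.p6, 250 bases before to 50 after a gene's start) were matched by symbol for 5 of the 6 gate genes, with 6 windows. The motif TGANTCA, a loose form of that known for AP-1 factors (searched on both strands, N being any base), was in 4 of these 6 windows and in 7.81% of all 32851 windows. Since N takes in any base, a match need not be the AP-1 motif itself: that of Trem2 reads TGAATCA and that of Itgax TGAGTCA. The windows with it belong to Gpnmb, Mmp12, Trem2 and Itgax, and 1 window each of Mmp12 and Myh15 lacked it. Of the 2 lysosomal motifs searched on both strands, TCACGTG was in none of the 6 windows and in 3.77% of all windows, and TCACATG was in 1 of the 6 and in 3.99% of all. With 12 further lipid-associated genes added, 13 of 18 genes had windows, 17 in all. TCACGTG was then in 2 of 17 windows, those of Ctsd, the lysosomal protease cathepsin D, and Plin2, TCACATG in 1 and TGANTCA in 4. In Ctsd 2 of the 3 matches of TCACGTG are 1 stretch read on both strands, 1 base apart. A match is a run of letters and no measured site. The 250 bases upstream of Trem2 (chr17:48346151-48346400, plus strand) and Itgax (chr7:128129300-128129549, plus strand) are shown for TGANTCA and those of Ctsd (chr7:142387828-142388077, minus strand) for TCACGTG, each 5′ to 3′ along the gene with the match in capitals.
Trem2: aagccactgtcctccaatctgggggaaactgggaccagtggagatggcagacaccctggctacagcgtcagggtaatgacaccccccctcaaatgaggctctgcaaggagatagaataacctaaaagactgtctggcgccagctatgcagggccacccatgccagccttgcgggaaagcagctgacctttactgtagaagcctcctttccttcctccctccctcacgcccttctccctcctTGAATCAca
Itgax: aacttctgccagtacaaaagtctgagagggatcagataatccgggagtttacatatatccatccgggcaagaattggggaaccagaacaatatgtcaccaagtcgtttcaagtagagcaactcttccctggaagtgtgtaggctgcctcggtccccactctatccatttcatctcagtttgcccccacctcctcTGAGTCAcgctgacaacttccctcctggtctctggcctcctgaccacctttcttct
Ctsd: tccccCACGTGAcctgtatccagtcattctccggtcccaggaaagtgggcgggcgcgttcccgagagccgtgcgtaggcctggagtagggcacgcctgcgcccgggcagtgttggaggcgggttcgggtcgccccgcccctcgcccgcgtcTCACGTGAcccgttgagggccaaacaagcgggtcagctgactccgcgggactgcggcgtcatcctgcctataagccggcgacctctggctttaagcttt

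LAM nuclei were scarce on the standard diet and had their highest share in mCherry mice on the high-fat diet with the gate as described. Their share of macrophage nuclei was 1.48% and 1.70% in mCherry SD, 59.5% and 53.6% in mCherry HFD, 16.4% and 19.7% in Tert HFD, and 12.2% and 11.6% in TertCi HFD. The 4 pairs of mice did not overlap, and the Tert and TertCi mice stood between the mCherry mice on the 2 diets. Group means were 1.59% ± 0.159, 56.5% ± 4.23, 18.1% ± 2.34 and 11.9% ± 0.460 (SD, n = 2 each), and by geometric means the share was 3.14-fold lower in Tert HFD and 4.75-fold lower in TertCi HFD than in mCherry HFD. An exact permutation test of the 4 groups gave p = 0.009524 (adjusted 0.009524 over 5 tests, which are both shares as gated and thinned and the level of the gate genes in empty droplets), the smallest that this design allows. The exact permutation test of 2 mice against 2 cannot go below 0.33 (two-sided), and no test of pairs of groups was run. Of all nuclei, members were 0.110% and 0.133% in mCherry SD, 30.3% and 17.3% in mCherry HFD, 4.69% and 2.13% in Tert HFD, and 2.05% and 2.08% in TertCi HFD, with the same exact permutation p of 0.009524. Leaving out either mCherry SD mouse gave an exact permutation p of 0.0667 for that share. A share of sorted nuclei does not tell more LAM from fewer other nuclei. As background, macrophage nuclei of all kinds were 7.63% ± 0.258, 41.6% ± 13.1, 19.7% ± 12.5 and 17.4% ± 0.878 (SD, n = 2) of nuclei, and resident macrophage nuclei, gated the same way on the 5 resident genes, were 4.47% ± 0.641, 8.10% ± 2.198, 8.16% ± 7.21 and 8.28% ± 0.233.

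Detection of the 6 genes rises with depth, so each nucleus was also thinned to 1000 UMIs before the gate, which left no nucleus out. The share of macrophage nuclei then was 0% (0 of 222, exact binomial upper limit 1.65%) and 0.836% in mCherry SD, 31.8% and 35.9% in mCherry HFD, 8.15% and 11.2% in Tert HFD, and 7.16% and 3.13% in TertCi HFD. The order of the groups was kept, with an exact permutation p of 0.009524, and Tert HFD and TertCi HFD stood closer to each other than either to mCherry HFD.

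RNA of the LAM genes was also free in the suspension, most of all in mCherry HFD. Empty droplets, barcodes with 50 to under 500 UMIs, held the 6 gate genes at 36.8 and 56.1 counts per 1000000 UMIs (CPM) in mCherry SD, 3363 and 2906 in mCherry HFD, 652 and 798 in Tert HFD, and 397 and 405 in TertCi HFD. Nuclei of other types carried this RNA as well. At least 2 of the 6 genes had a UMI in 50.8% and 48.1% of progenitor nuclei of the mCherry HFD mice, beside 73.7% and 65.4% of their macrophage nuclei, at median depths of 5203.5 and 2709.5 UMIs for progenitor and 3757 and 2445.5 UMIs for macrophage nuclei. In TertCi HFD these shares were 3.4% and 2.9% of progenitor nuclei and 14.9% and 12.9% of macrophage nuclei. Members themselves held the 6 genes at 4195 and 3961 CPM in mCherry HFD, 4062 and 3198 in Tert HFD and 4159 and 3965 in TertCi HFD, a range that overlapped between the groups. Resident nuclei held them at 737 and 751, 195 and 416, and 91.0 and 73.9 CPM in the same order, and progenitor nuclei at 1326 and 1394, 254 and 241, and 147 and 99.2 CPM.

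**Figure D1:**
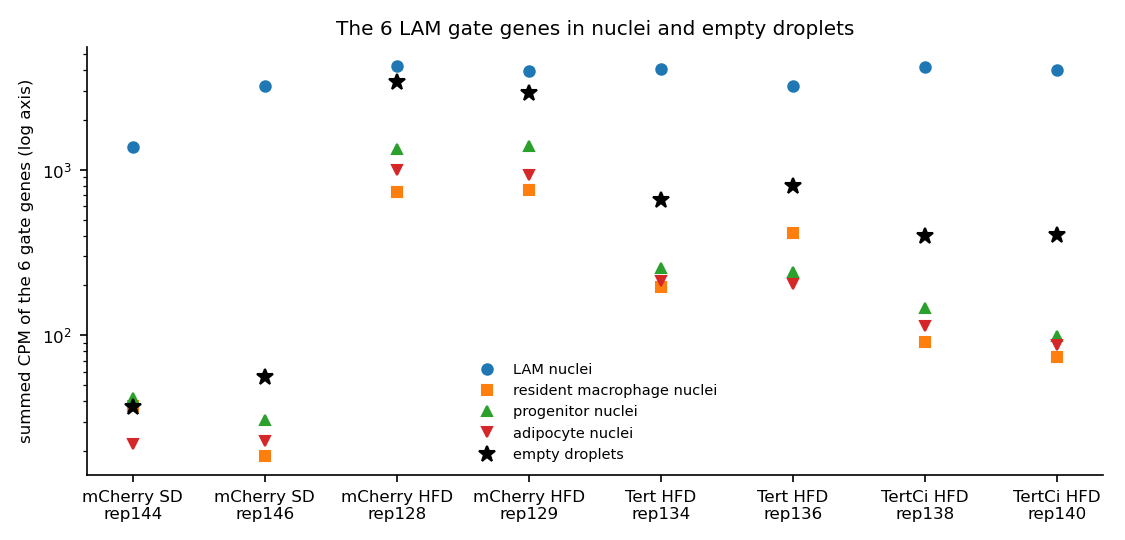
Summed CPM of the 6 LAM gate genes (log axis) in each mouse, for LAM nuclei, resident macrophage, progenitor and adipocyte nuclei (colored markers) and for empty droplets (black stars). Empty droplets reached 3363 and 2906 CPM in mCherry HFD and stayed at or below 798 CPM in the other mice.

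How large the difference in share is depends on the limit set against this background. When members also had to exceed the level below which 95% of progenitor nuclei of the same library lie, the share of macrophage nuclei was 1.48% and 1.70% in mCherry SD, 15.6% and 10.9% in mCherry HFD, 15.6% and 18.9% in Tert HFD, and 12.1% and 11.6% in TertCi HFD. The mCherry HFD mice then stood above the mCherry SD mice but no longer above all Tert and TertCi mice. That limit was 49.2 and 54.9 LAM UMIs per 10000 in mCherry HFD against 4.44 to 8.75 in the other high-fat mice, so it removed more members there. With the highest of these limits applied to every library, the shares were 0% and 0.393%, 12.98% and 10.9%, 3.34% and 3.14%, and 2.78% and 2.49%. Under that common limit, both mCherry HFD mice were above both mice of every other group. The common limit is that of mCherry HFD rep129, and free LAM RNA counts toward it in every library. It therefore does not remove the unequal background, which was highest in mCherry HFD. Both limits were chosen after the shares had been seen.

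**Figure D2:**
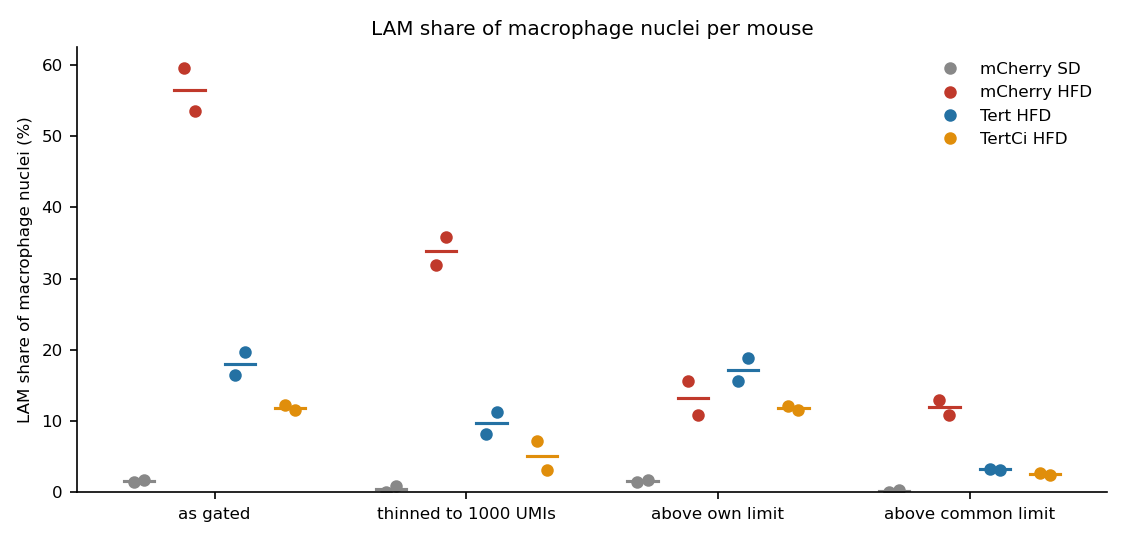
LAM share of macrophage nuclei (%) per mouse (circles, 2 per group) with the group mean (bars), as gated, after thinning to 1000 UMIs, and with the limits set by progenitor nuclei of the same library or by the highest library. The mCherry HFD mice lie above the other groups in all settings except the limit of the own library, where both lie above mCherry SD only.

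Genes that the gate did not use bear on the label. Of 12 lipid-associated genes outside the gate, 6 were at least 2-fold higher in LAM than in resident macrophage nuclei in each of the 6 high-fat mice (folds with an offset of 5 CPM), against a background of 3.11% past this fold among the 11734 genes compared, 1.44% higher and 1.67% lower. The gate set LAM against resident nuclei, so these folds are a description with no test. Lgals3, a galectin of phagocytic cells, was 1157, 1102, 1245, 706, 1172 and 1134 CPM in LAM nuclei and 348, 321, 143, 154, 82.3 and 69.7 CPM in resident nuclei, in the order rep128, rep129, rep134, rep136, rep138 and rep140. The ranges did not overlap. Lpl, lipoprotein lipase, was 1333, 1181, 1111, 868, 991 and 723 CPM in LAM and 427, 363, 251, 241, 161 and 153 CPM in resident nuclei, a mean log2 difference of 2.01 ± 0.36 (SD, n = 6). The fatty acid receptor Cd36 differed by 1.39 ± 0.24, the droplet coat Plin2 by 1.44 ± 0.28, the lysosomal lipase Lipa by 1.63 ± 0.46 and the tetraspanin Cd9 by 2.46 ± 0.99 on the log2 scale (SD, n = 6). Apoe, the lipid carrier often listed with these genes, was lower in LAM in all 6 mice, by a log2 difference of -1.44 ± 0.24 (SD, n = 6). Ctsd, Fabp4, Fabp5, Spp1 and Tyrobp did not reach 2-fold in every mouse.

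Other lists of known function were compared in the same way, beside 1.44% higher and 1.67% lower over all genes compared. Of 16 genes of lipid uptake and storage compared, 4 were higher in LAM (Lrp1, Plin2, Cd36, Lpl). Of 12 of cholesterol efflux 1 was higher, Abcg1 (log2 1.96 ± 0.67, SD, n = 6), and 1 was lower, Apoe. Of 27 lysosomal genes 3 were higher (Lipa, the protease Ctsk and the proton pump subunit Atp6v1b2). None of 11 genes of Trem2 signalling (median log2 0.02), 12 of fatty acid oxidation, 10 of p53 and senescence or 8 of telomerase and shelterin differed that far. Of 8 interferon genes 1 was lower, Oas2. Among 11 genes of matrix turnover and cell fusion, 4 were higher: the integrin Itgav (1.77 ± 0.42), Ctsk (2.15 ± 0.56), the urokinase receptor Plaur (1.56 ± 0.37) and the protease Adam8 (2.59 ± 1.00). None of 11 inflammatory genes differed that far, and of 9 class II genes 1 was lower, the costimulator Cd86 (log2 -2.55 ± 0.58). Of 11 resident genes outside the gate, 8 were lower, with Folr2 at -1.77 ± 0.64 and Cbr2 at -2.45 ± 0.37. Of 13 growth and survival genes, 2 were higher in LAM (Pdgfb and the receptor Tgfbr1) and 2 were lower (Pdgfc and Tgfbr2). Pdgfc was 211, 238, 270, 250, 182 and 88.9 CPM in LAM beside 1067, 1150, 1029, 848, 1328 and 623 CPM in resident nuclei.

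Beyond these lists, the 15 leading folds in LAM nuclei were those of Fat3, a giant cadherin (mean 754 against 89.3 CPM), Ksr2, a scaffold of the Ras pathway (251 against 16.4), Fgf13, an intracellular fibroblast growth factor homologue (884 against 88.8), Efr3b, the clotting factor F7, Tmem267, the sulfotransferase Chst11, the interleukin receptor Il7r (186 against 24.2), Rnf128, Ankdd1a, the adhesion molecule Cadm1 (1156 against 186), Olfr111, Zranb3, the stress factor Atf3 (187 against 25.4) and Plxdc1. Atf3 belongs to the family of factors that bind AP-1 type motifs, of which the TGANTCA searched above is a loose form. On the resident side the leaders were Ednrb, an endothelin receptor (19.5 CPM in LAM against 472), Cd38, Mctp2, Retnla, a gene of alternatively activated macrophages (29.8 against 391.8), Plekhg5, the lectins Cd209b and Cd209d, Cmah, Enpep and Sema6a.

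**Figure D3:**
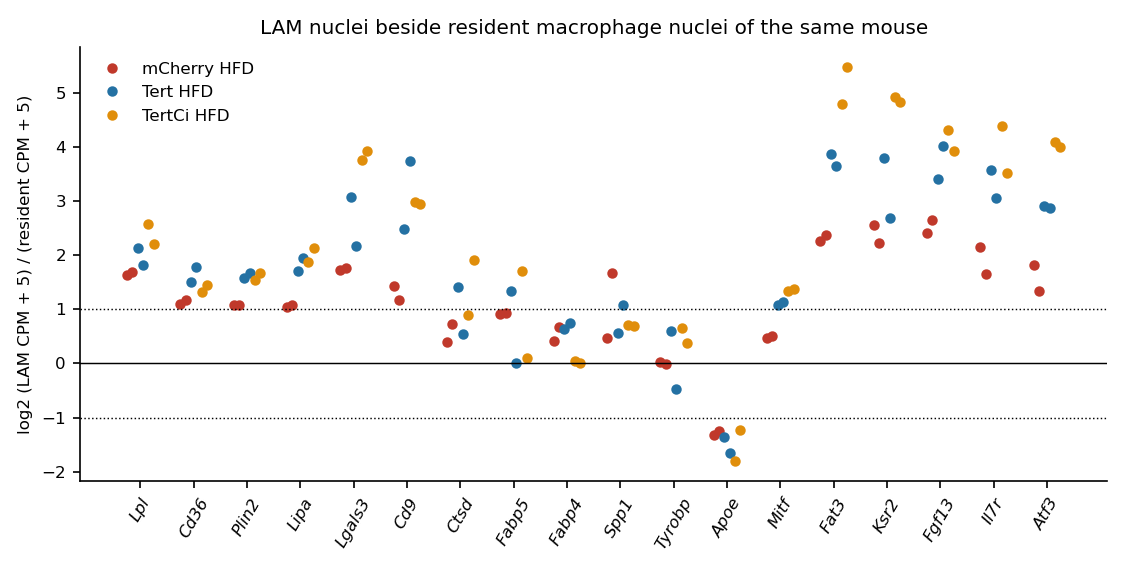
Log2 ratio of CPM (offset 5) in LAM over resident macrophage nuclei of the same mouse, 1 circle per high-fat mouse, for the 12 lipid-associated genes outside the gate, Mitf and 5 of the leading LAM genes. Dotted lines mark 2-fold; Lpl, Cd36, Plin2, Lipa, Lgals3 and Cd9 lie above in all 6 mice and Apoe lies below.

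Over genes chosen for their fold, LAM and resident nuclei stood closer together in mCherry HFD than in the other groups. Over the 164 LAM-high genes that are not gate genes, the median log2 ratio was 1.46 and 1.41 in mCherry HFD, 2.16 and 1.97 in Tert HFD and 2.33 and 2.39 in TertCi HFD, and over 190 resident-high genes it was -1.77 and -1.62, -1.85 and -2.08, and -2.32 and -2.198. The amount of free LAM RNA in the suspension moved with this order, and its part was not tested. The 164 and 190 genes were chosen for being at least 2-fold higher or lower in LAM in every one of these same mice. The medians therefore come from the values that chose the genes, and they are a description. The part of this choice, and of the unequal member counts of the mice, was not tested.

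Members differed among themselves by degree. In mCherry HFD rep128, 27.7% of members had exactly 2 of the 6 genes, 30.5% had 3 and 41.8% had 4 to 6, while in TertCi HFD rep140 these shares were 53.3%, 25.2% and 21.5%. Members with more of the 6 genes were deeper, with medians of 3057, 3630.5 and 5296 UMIs in rep128. Genes the gate did not use differed between members and macrophage nuclei with 0 or 1 of the 6 genes in every high-fat mouse, but did not step evenly with the count in all. Members had to hold a LAM sum above the resident sum, while nuclei with 0 or 1 gene had no such condition. The part of this choice in the difference was not tested, so the values are a description. In rep128 the 12 lipid-associated genes summed to 4071 CPM in macrophage nuclei with 0 or 1 gate gene and to 6147, 7397 and 8744 CPM in members with 2, 3 and 4 to 6. In TertCi HFD rep138 the same steps were 2337, 5154, 6804 and 8931 CPM. The order broke in Tert HFD rep136 (1457, 4198, 3821 and 5864 CPM) and in TertCi HFD rep140 (1636, 3851, 6658 and 6269 CPM). The resident genes outside the gate summed to 2326, 1025, 946 and 773 CPM across the same steps in rep128 and to 2142, 636, 365 and 390 CPM in rep138. Mitf, a driver of lysosomal genes, was 1898, 2346, 2700 and 2962 CPM in rep128 and 1683, 3405, 4523 and 4372 CPM in rep138, and in rep136 it was 2019, 4085, 3652 and 4506 CPM. At the threshold, members whose LAM sum was just 1 UMI above the resident sum numbered 202 in rep128, and macrophage nuclei with equal sums, just outside, numbered 119. Another 816 macrophage nuclei of rep128 had only 1 of the 6 genes and a LAM sum above the resident sum.

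**Figure D4:**
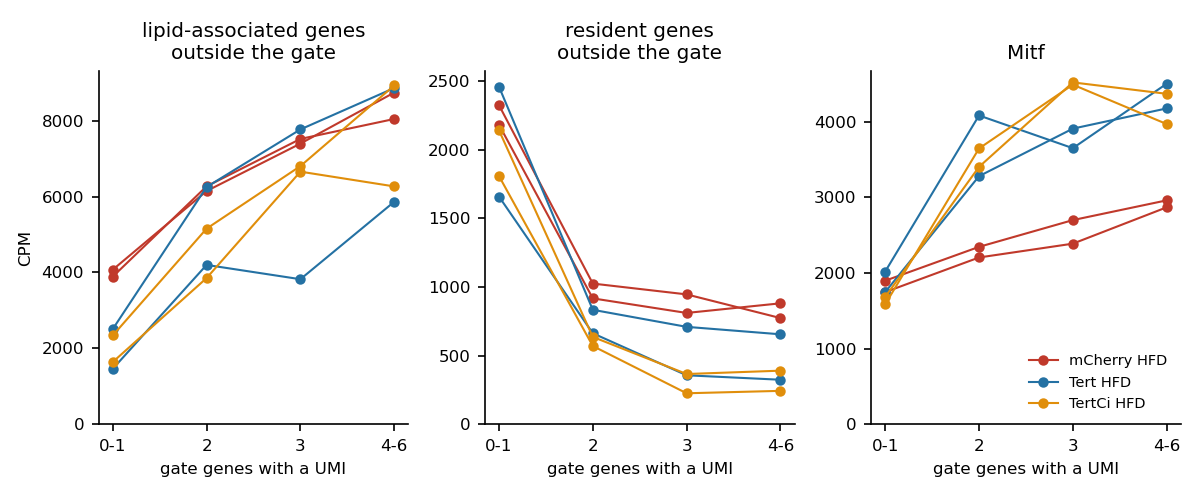
CPM of lipid-associated genes and resident genes outside the gate (each summed) and of Mitf in macrophage nuclei with 0 or 1 gate gene and in LAM nuclei with 2, 3 and 4 to 6 gate genes, 1 line per high-fat mouse. Lipid-associated genes were higher and resident genes lower in members than in macrophage nuclei with 0 or 1 gate gene in every mouse. Only members had to hold a LAM sum above the resident sum, so this is a description.

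Markers of other cells were present in member sums, and some lists reached the level of the resident macrophage genes outside the gate, which summed to 371 to 869 CPM over the 8 mice. The 9 adipocyte markers summed to 75.4 and 116 CPM in mCherry HFD, 280 and 456 in Tert HFD and 339 and 224 in TertCi HFD, and 934 and 666 in mCherry SD. Progenitor markers ran from 110 to 740 CPM, endothelial from 53.3 to 106, mesothelial from 5.56 to 107, T cell from 0 to 117 and dendritic from 0 to 39.4 CPM over the 8 mice. The 4 genes listed as B cell markers (Pax5, Bank1, Ms4a1 and Ebf1) ran from 323 CPM in mCherry HFD rep128 to 1830 in mCherry SD rep144. This sum does not tell which of the 4 genes it comes from, and no B cell content is read from it. The mCherry SD sums held 25686 and 37519 UMIs, so the tops of the T cell, mesothelial and B cell ranges are 3, 4 and 47 UMIs. Among the B cell markers Bank1 was at least 2-fold lower in LAM than in resident nuclei in every high-fat mouse, and its source was not tested. Neutrophil markers were at 0 in all mice except rep128 (0.786 CPM) and rep134 (0.384 CPM). By the 6 adipocyte genes outside the gate, free RNA was estimated at 15.9% and 21.1% of member UMIs in mCherry HFD, 15.9% and 38.2% in Tert HFD and 13.2% and 9.70% in TertCi HFD. Progenitor nuclei held the LAM gate genes at 1326, 1394, 254, 241, 147 and 99.2 CPM in these mice. Empty droplets held them at 3363, 2906, 652, 798, 397 and 405 CPM. Whether the adipocyte-based share, which the corrections below use, is right for macrophage RNA was not tested.

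Gene expression of LAM nuclei was compared between genotypes over 6 high-fat mice, on UMIs summed per mouse. The question was whether LAM nuclei of mice with a Tert or TertCi insert differ from those of mCherry mice. Both mCherry SD mice had fewer than 20 members and were left out, so no diet comparison of genes was made. Of 11882 genes, 804 differed between Tert HFD and mCherry HFD at an adjusted p under 0.05 (6.77%), 219 higher (1.84%) and 585 lower (4.92%). Between TertCi HFD and mCherry HFD 1317 differed (11.1%), 540 higher (4.54%) and 777 lower (6.54%). These 2 comparisons share their mCherry mice. Between Tert HFD and TertCi HFD edgeR called 0 genes (594 at an unadjusted p under 0.05), and DESeq2 called 0 as well (149 at an unadjusted p under 0.05), so no difference between Tert HFD and TertCi HFD was shown, which does not show that they are alike. The first comparison rests partly on single mice: it gave 307 genes without mCherry HFD rep128 and 287 without Tert HFD rep134, and the second gave 542 without rep128, 344 without TertCi HFD rep138 and 674 without rep140. Of the 804 genes, 112 stayed called when any 1 mouse was left out and 167 with DESeq2, and of the 1317 genes 238 and 358 did. A fit without a mouse leaves a single mouse in its group, so its spread comes from the other groups. Counts and kept calls of such fits are a description. Of the settings tried, the fewest genes were called with the planned correction for free RNA. With that correction, which profiles free RNA in barcodes of 10 to 100 UMIs, 1 of the 804 genes (Lysmd4, lower) and 39 of the 1317 stayed called. The profiles of that window held 108012 UMIs in Tert HFD rep134 and 158691 in mCherry HFD rep128, so a correction from the empty droplets of 50 to under 500 UMIs was added after the data had been seen. It left 390 of the 804 and 642 of the 1317. Below, the planned and the added correction are named by these words.

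The 6 lipid-associated genes that were at least 2-fold higher in LAM than in resident nuclei (Lpl, Cd36, Plin2, Lipa, Lgals3 and Cd9) were not called in either comparison. The calls in this list fell on 4 others, and none was kept with the added correction for free RNA. None of the 12 lipid-associated genes outside the gate was higher in either Tert group, and 2 were lower in Tert HFD (Apoe, Tyrobp) and 4 in TertCi HFD (Apoe, Ctsd, Fabp5, Tyrobp), beside 4.92% and 6.54% lower over all genes. Their median log2 change was -0.55 and -0.83, beside -0.02 and -0.05 over all genes. Lpl was 1333 and 1181 CPM in mCherry HFD, 1111 and 868 in Tert HFD and 991 and 723 in TertCi HFD (adjusted p = 0.491 and 0.171 with edgeR). Cd36 was 2770 and 2782, 3351 and 2030, and 3200 and 2396 CPM, with groups that overlapped. Apoe was 264 and 228 CPM in mCherry HFD, 76.9 and 11.1 in Tert HFD and 37.5 and 21.5 in TertCi HFD (log2 -1.86 ± 0.30 SE, adjusted p = 0.0038, and -2.72 ± 0.35 SE, adjusted p = 0.000835). All 4 Tert and TertCi mice were below both mCherry mice. Empty droplets held Apoe at 1352 and 1013 CPM in mCherry HFD, above its level in the LAM nuclei, and at 168, 17.2, 62.4 and 22.5 CPM in the other mice. With the added correction the change in Tert HFD was 0.32, in the opposite direction, and the call was lost in both groups. Empty droplets of mCherry HFD also held Ctsd, Fabp5 and Tyrobp above the nuclei (Ctsd at 611 and 466 CPM beside 164 and 149).

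Among lysosomal genes the regulator Mitf rose in both groups, while the pump subunit Atp6v0b and the protease Ctsl fell. Of 27 lysosomal genes 1 rose and 2 fell in Tert HFD, and 3 rose and 4 fell in TertCi HFD, beside 1.84% higher and 4.92% lower, and 4.54% and 6.54%, over all genes. These are 1 to 4 genes of 27, and nothing particular to the list is read from them. Mitf was 2774 and 2565 CPM in mCherry HFD, 3804 and 4065 in Tert HFD and 4063 and 3996 in TertCi HFD. All 4 Tert and TertCi mice were above both mCherry mice (log2 0.68 ± 0.13 SE, adjusted p = 0.00558, and 0.82 ± 0.13 SE, adjusted p = 0.00121), and both calls held with DESeq2 and with the added correction but not with the planned one (adjusted p = 0.196 and 0.116). The Tert HFD call of Mitf held in 5 of 6 fits with a mouse left out. Tfeb, a related factor, rose in TertCi HFD (199 and 194 against 248.9 and 294 CPM, adjusted p = 0.0137), as did the pump subunit Atp6v1c1 (adjusted p = 0.0302), and both were lost with either correction. Atp6v0b, another pump subunit, was 383 and 358 CPM in mCherry HFD, 161 and 89.0 in Tert HFD and 110 and 120 in TertCi HFD (log2 -1.30 ± 0.18 SE and -1.49 ± 0.19 SE), and its calls held in each fit without a mouse, with DESeq2 and with the added correction, but not with the planned one (adjusted p = 0.276 and 0.147). Ctsl, a lysosomal protease, was 379 and 324 CPM in mCherry HFD, 133.7 and 83.4 in Tert HFD and 63.3 and 73.5 in TertCi HFD (adjusted p = 0.000344 and 3.98e-05). Empty droplets of mCherry HFD held Ctsl at 1129 and 902 CPM, and with either correction its call was lost in Tert HFD and kept in TertCi HFD.

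Of 12 genes of cholesterol efflux, Abca1 rose in both groups, and Abcg1 and Rxra, the partner of the oxysterol receptors, rose in TertCi HFD, while Apoe fell in both. That is 1 and 3 of 12 higher, beside 1.84% and 4.54% over all genes, and 1 of 12 lower in each, beside 4.92% and 6.54%. Abca1 was 503 and 506 CPM in mCherry HFD, 770 and 729 in Tert HFD and 611 and 598 in TertCi HFD. The 3 pairs did not overlap (log2 0.68 ± 0.13 SE and 0.48 ± 0.13 SE, adjusted p = 0.00457 and 0.0255). Free RNA held Abca1 at 406 to 569 CPM in the 6 mice, and the call was kept in Tert HFD with the added correction, lost there with the planned one (adjusted p = 0.199) and lost in TertCi HFD with both. Abcg1 was 215 and 194 CPM in mCherry HFD, 298 and 184 in Tert HFD and 295 and 257 in TertCi HFD (adjusted p = 0.14 and 0.0173), and the TertCi call was kept with the added correction and lost with the planned one (adjusted p = 0.29).

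Of 16 genes of lipid uptake and storage, 3 rose in Tert HFD (Acsl1, Dgat2, Lrp12) and 4 rose in TertCi HFD (the same 3 and the scavenger receptor Msr1), with Fabp5 and Hilpda lower there. Over all genes 1.84% were higher in Tert HFD, and 4.54% were higher and 6.54% lower in TertCi HFD. Lrp12, a lipoprotein receptor relative, was 222 and 241 CPM in mCherry HFD, 314 and 428 in Tert HFD and 407 and 383 in TertCi HFD, and it kept both calls with the added correction and neither with the planned one. Acsl1 and Dgat2, enzymes of fatty acid activation and triglyceride synthesis, are also adipocyte genes. Acsl1 was 77.7 and 103 CPM in mCherry HFD, 185 and 133 in Tert HFD and 172 and 116 in TertCi HFD, while empty droplets held it at 252 and 304, 995 and 315, and 1185 and 1025 CPM. With the added correction its log2 change was -0.62 in Tert HFD and -1.19 in TertCi HFD.

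Of 13 genes of fatty acid oxidation, none was called in Tert HFD and 2 rose in TertCi HFD, beside 1.84% and 4.54% higher over all genes. Ppargc1b, a coactivator of mitochondrial genes, was 57.9 and 53.02 CPM in mCherry HFD, 76.1 and 111 in Tert HFD and 99.8 and 132 in TertCi HFD (log2 1.22 ± 0.24 SE, adjusted p = 0.00408 in TertCi HFD). This TertCi call held in all 6 fits without a mouse, with DESeq2 and with the added correction, but not with the planned one (adjusted p = 0.115). Pparg was 649 and 621, 766 and 834, and 764 and 815 CPM (adjusted p = 0.0227 in TertCi HFD), a call lost with either correction.

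In LAM nuclei of TertCi HFD, resident genes outside the gate were lower still, but the gate bears on this. It admits a nucleus when its LAM sum exceeds its resident sum, and free LAM RNA was highest in mCherry HFD. Members held on average 1.24 and 0.954 UMIs of the 5 resident gate genes in mCherry HFD. In Tert HFD they held 1.73 and 0.623, and in TertCi HFD 0.683 and 0.608. The part of the gate in the calls of resident genes was not tested. Of 9 resident genes outside the gate, 0 were called in Tert HFD and 6 fell in TertCi HFD, among them Clec10a, Folr2, Maf, Pf4 and Stab1. Stab1, a scavenger receptor, was 164 and 151 CPM in mCherry HFD, 122 and 61.2 in Tert HFD and 65.4 and 49.0 in TertCi HFD (adjusted p = 0.00371), and it alone of the 6 kept its call with the added correction, while none kept it with the planned one. Of 11 inflammatory genes 1 fell in TertCi HFD, the chemokine Ccl2 (16.2 and 17.4 against 3.22 and 0 CPM), and of 9 class II genes 1 fell, H2-Ab1 (124 and 93.2 against 37.5 and 27.6 CPM). Over all genes 6.54% were lower there, so 1 of 11 and 1 of 9 are near the background, and neither call was kept with either correction. Of 11 genes of matrix and fusion, Ctsk and Plau fell in TertCi HFD. Among 8 genes of telomerase and shelterin, Dkc1 fell in both groups and Tinf2 in TertCi HFD (4.92% and 6.54% lower over all genes), with Dkc1 at 38.7 and 35.6 CPM in mCherry HFD, 13.4 and 0 in Tert HFD and 9.65 and 0 in TertCi HFD. None of 13 genes of the p53 and senescence list, 8 interferon genes or 12 growth and survival genes was called in either comparison. Cdkn1a was 16.7 and 15.5 CPM in mCherry HFD, 17.7 and 0 in Tert HFD and 12.9 and 9.19 in TertCi HFD (adjusted p = 0.992 and 0.795). Of 11 genes of Trem2 signalling 1 fell in each comparison, the adaptor Tyrobp. Of the list genes named here, calls that held without each mouse, with DESeq2 and with the added correction were those of Atp6v0b in both comparisons and of Mitf, Ctsl, Lrp12, Ppargc1b and Stab1 in TertCi HFD. Of these only Ctsl in TertCi HFD held with the planned correction as well.

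**Figure D5:**
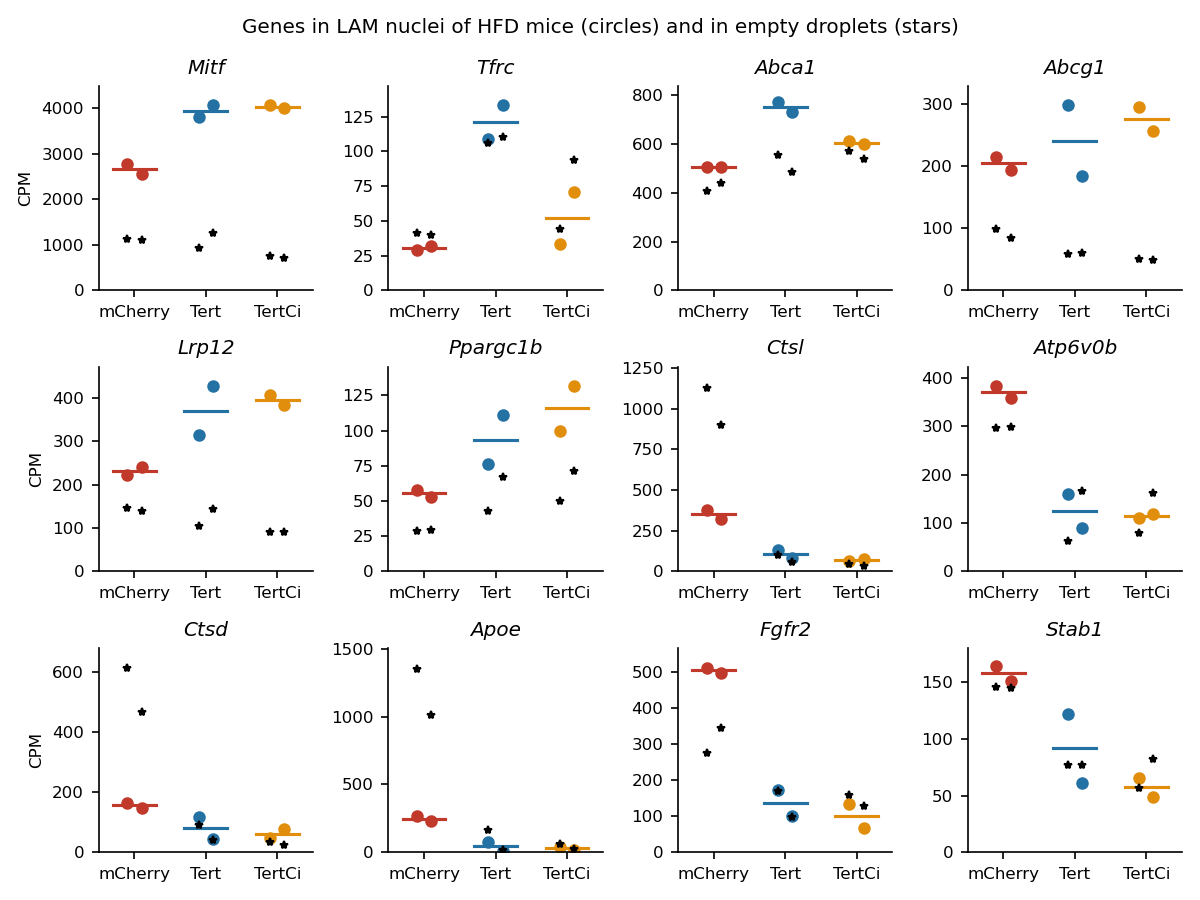
CPM of 12 genes in LAM nuclei of each high-fat mouse (colored circles, bars are group means of 2) and in empty droplets of the same library (black stars). Mitf lies higher in all 4 Tert and TertCi mice than in both mCherry mice, and Ctsl, Ctsd and Apoe lie higher in empty droplets than in LAM nuclei in mCherry HFD.

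The 10 leading rises in Tert HFD were of Pnpla3, Adrb3, Trhde, Acvr1c, Rgs7, Ankef1, Tmem45b, Smoc1, Slc1a3 and Cd1d1, and those in TertCi HFD were the first 9 of these and Ptchd4. Several of these are known from adipocytes, such as the receptor Adrb3 and the lipase relative Pnpla3, and 3 of 6 adipocyte markers rose in Tert HFD and 4 of 6 in TertCi HFD, beside 1.84% and 4.54% higher over all genes. Adrb3 was 1.51 and 4.17 CPM in mCherry HFD, 19.2 and 83.4 in Tert HFD and 27.9 and 46.0 in TertCi HFD, and empty droplets held it at 12.3 and 20.0, 139 and 154, and 171 and 260 CPM. Adrb3 and Acvr1c were among the genes that set the share of free RNA, so their loss under either correction carries no weight. Of the other rises, Tmem45b alone kept its calls with the added correction, and none did with the planned one, with which Trhde, Tert HFD against mCherry HFD, turned to a log2 change of -5.35. The 10 leading falls in Tert HFD were of Mycbp, Lrrc18, Pard3bos1, Plxna4os3, Uchl4, Tmem126a, Pebp1, Mgp, Ubl5 and Lysmd4, and all of them but Mgp kept the call with the added correction, but Lysmd4 alone with the planned one. DESeq2 did not call Lrrc18, Pard3bos1, Uchl4 and Ubl5, and only Tmem126a and Lysmd4 of the 10 held with each mouse left out, with DESeq2 and with the added correction. Those in TertCi HFD included Kctd4, Rps2, Tent5d, Mycbp, Lum, Insyn2a, Rsf1os1, Pebp1 and Lrrc4, of which Rps2 and Lum lost it with the added correction and all did with the planned one. Of these 9, Tent5d, Mycbp, Insyn2a, Rsf1os1 and Pebp1 held with each mouse left out, with DESeq2 and with the added correction. The named falls rest on few UMIs in the Tert and TertCi mice. Member sums held 33066696 UMIs in mCherry HFD rep128, 179820 in Tert HFD rep136 and 326327 in TertCi HFD rep140. The Tert HFD falls other than Lysmd4 (216 and 5 UMIs) had 9 to 26 UMIs in rep134 and 0 to 2 in rep136. The named TertCi HFD falls had 1 to 26 in rep138 and 0 to 3 in rep140. Lysmd4 was 422 and 441 CPM in mCherry HFD, 83.0 and 27.8 in Tert HFD and 72.9 and 42.9 in TertCi HFD (log2 -2.5002 ± 0.23 SE, adjusted p = 0.000133, and -2.57 ± 0.24 SE, adjusted p = 4.81e-05). In resident nuclei of the same mice Lysmd4 was 440 and 430, 83.4 and 8.32, and 76.0 and 36.5 CPM, and the interaction was 0.05 in both (adjusted p = 1 and 0.986). Empty droplets held Lysmd4 at 168 and 241 CPM in mCherry HFD, 58.1 and 15.2 in Tert HFD and 36.5 and 21.9 in TertCi HFD, in the same direction. For none of the genes named in this paragraph was the difference in LAM shown to depart from that in resident nuclei, so none is shown to be particular to LAM. The antisense transcripts Pard3bos1, Plxna4os3 and Rsf1os1 are uncertain, since the use of strand in counting is not given in the sources used here.

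Calls that held with every mouse left out, with DESeq2 and with the added correction numbered 57 for Tert HFD and 171 for TertCi HFD, and with the planned correction in its place 1 and 34. The following were picked from the 57 and 171 after their values were seen. With the planned correction Fgfr2, Gsdme, Ksr2 and Tfrc all lost their Tert HFD calls, and in TertCi HFD Gsdme lost its call while Fgfr2 and Ksr2 kept theirs. Fgfr2, a growth factor receptor, was 513 and 498 CPM in mCherry HFD, 174 and 100.1 in Tert HFD and 135 and 67.4 in TertCi HFD (log2 -1.62 ± 0.21 SE and -1.99 ± 0.22 SE). Gsdme, a pore-forming gasdermin, was 104.5 and 104.5, 28.1 and 11.1, and 20.4 and 15.3 CPM. Ksr2, one of the leading LAM genes above, was 102 and 101 CPM in mCherry HFD, 241 and 267 in Tert HFD and 395 and 398 in TertCi HFD (log2 1.39 ± 0.16 SE and 2.18 ± 0.16 SE), and empty droplets held it at 18.9 to 55.6 CPM. Tfrc, the transferrin receptor that brings in iron, was 29.1 and 31.8 CPM in mCherry HFD, 109 and 133 in Tert HFD and 33.3 and 70.5 in TertCi HFD (adjusted p = 0.000636 and 0.125). Empty droplets held Tfrc at 106 and 111 CPM in Tert HFD and at 41.6 and 40.1 in mCherry HFD.

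Genotype differences in LAM nuclei were tested against those in resident nuclei of the same 6 mice. The gate divides the 2 kinds by their LAM and resident sums, and free LAM RNA was highest in mCherry HFD. Resident nuclei held the 6 LAM genes at 737 and 751 CPM there and at 73.9 to 416 CPM in the other high-fat mice. The part of the gate and of free RNA in the calls was not tested, so a departure is not shown to belong to LAM. The Tert difference in LAM departed from that in resident nuclei for 236 of 13351 genes (1.77%; 178 in the direction of higher in LAM, 1.33%, and 58 lower, 0.434%). The TertCi difference departed for 514 (3.85%; 318 higher, 2.38%, and 196 lower, 1.47%). Gate genes are in these counts because the fit ran on the whole table, and nothing is read from them: without them the counts were 170 higher and 58 lower for Tert and 311 and 195 for TertCi. These counts depend on the processing. For Tert there were 24 genes with DESeq2, 12 without Tert HFD rep134, 50 without mCherry HFD rep129, 63 without rep128, 83 with the added and 11 with the planned correction for free RNA. For TertCi there were 175 with DESeq2, 226 without rep129, 263 without rep128, 300 without TertCi HFD rep138, 343 without rep140, 175 with the added and 25 with the planned correction. Of the 178, 92 were genes already at least 2-fold higher in LAM than in resident nuclei in every mouse, and of the 318, 118 were, while 1.44% of all genes compared were that much higher in LAM. Genes at least 2-fold higher in resident nuclei were 8 of the 178 and 3 of the 318, and among the lower calls 10 of the 58 and 41 of the 196, beside 1.67% of all genes compared. The counts by fold were not made without gate genes, which were 8 of the 178, 7 of the 318, 0 of the 58 and 1 of the 196. The folds also come from the same nuclei as the calls, so the counts are a description. In the lipid-associated list 4 of 12 were in this set for Tert (Cd9, Ctsd, Lgals3, Lipa) and 6 of 12 for TertCi (these 4 with Lpl and Plin2), all in the direction of higher in LAM. With both corrections none of the 4 kept its call for Tert and 1 of the 6, Lgals3, did for TertCi. In LAM nuclei Lgals3 was 1157, 1102, 1245, 706, 1172 and 1134 CPM and in resident nuclei 348, 321, 143, 154, 82.3 and 69.7, so the LAM values of the groups overlapped and the resident values of mCherry HFD were above all others. Empty droplets held Lgals3 at 1217 and 887 CPM in mCherry HFD and at 140 to 256 CPM in the other high-fat mice, and the part of this free RNA was not tested. For Mitf the resident nuclei were at 1996 and 1794, 1795 and 1846, and 1601 and 1530 CPM beside the LAM values above (interaction log2 0.61, adjusted p = 0.0018, and 0.91, adjusted p = 4.6e-09). Both Mitf interactions held with DESeq2, the TertCi one also with the added correction, and neither with the planned one. Of 27 lysosomal genes 5 departed for Tert and 12 for TertCi, all toward higher in LAM, of which 0 and 3 kept the call with the added correction and none with the planned one. This direction is relative to resident nuclei and need not be a rise in LAM. Among these genes Ctsl fell in LAM nuclei of Tert HFD, and Ctsd and Ctsk fell in those of TertCi HFD. Of 9 class II genes 3 departed for Tert and 5 for TertCi, all toward lower in LAM, of which 0 and 2 (Cd74, Cd86) kept it with the added correction and 0 and 1 (Cd74) with the planned one. Cd74, the class II chaperone, was 370 and 223 CPM in mCherry HFD LAM, 209 and 77.9 in Tert HFD and 105.1 and 64.4 in TertCi HFD, beside 413 and 260, 442 and 200, and 305 and 290 CPM in resident nuclei. The insulin-like growth factor Igf1 also departed toward lower in LAM in both (log2 -0.87 and -0.74, adjusted p = 1.1e-05 and 0.00014), calls lost with DESeq2 and with either correction.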

How the data were processed

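Nuclei of visceral white adipose tissue from 8 mice were sorted and sequenced in droplets. The deposited values are raw UMI counts per gene and barcode, unfiltered, made with Cell Ranger 7.1.0 per the file headers, while the submitters' processing notes name Cell Ranger 5.0.1, bcl2fastq 2.20.0 and the build mm39. Members, gene lists and alternatives were chosen with earlier results of these data known.

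Nuclei were gated as described (Python 3.11.15, scanpy 1.11.5, scipy 1.17.1). Counts of members were summed per mouse, genes with low counts were dropped with filterByExpr, and groups were compared with edgeR 4.0.16 (R 4.3.3, TMM, robust quasi-likelihood test, Benjamini-Hochberg adjusted p under 0.05). Libraries with fewer than 20 members were left out. The interaction fit held summed LAM and resident counts with mouse as a block. Shares were compared by an exact permutation F test, and share intervals (95%, exact binomial) cover counting error only. Free RNA was profiled in barcodes of 10 to 100 UMIs (planned) or of 50 to under 500 UMIs (added after the data had been seen), its share per library was set by Adipoq, Adrb3, Lipe, Lep, Acvr1c and Pck1, and the expected counts were subtracted. Doublets were not removed, but in an alternative the highest scores were, at 0.8% per 1000 nuclei.

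Named genes were all list members and, per comparison, the 10 leading changes each way past the threshold with groups that do not overlap and a mean of at least 20 CPM in the higher group, without gate genes and predicted models. Some genes that this rule names are not reported here. Beside resident nuclei the 15 highest and 10 lowest folds at 50 CPM or more were named. On simulated counts for the Tert comparison, 37.9% of 103 genes changed 2-fold and 81.5% of 92 changed 4-fold were recovered among 11507 genes (39 and 75 genes). In the same simulation 19 unchanged genes were called as well. Beside the 39 and 75 recovered genes, these 19 are a larger share of the calls than an adjusted p under 0.05 is meant to allow. The adjusted p therefore understated the share of false calls in this simulation. That share was not tested for the calls from the mice.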

Additional observations from a re-analysis of the deposited data

Results flagged for a closer look

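The Tert difference in LAM nuclei departed from that in resident macrophage nuclei for 236 genes and the TertCi difference for 514, by a test of the difference itself. The part in these calls of the gate, which divides LAM from resident nuclei, and of free RNA was not tested. With a mouse left out these counts ran from 12 (without Tert HFD rep134) to 267 and from 226 (without mCherry HFD rep129) to 553, with DESeq2 they were 24 and 175, and with free RNA of barcodes of 10 to 100 UMIs subtracted 11 and 25. Lgals3, Cd9, Ctsd and Lipa were among them in both, toward higher in LAM, and Cd74 and H2-Eb1 toward lower. The direction is that of the difference in LAM minus the difference in resident nuclei. In LAM nuclei themselves Lgals3, Cd9, Lipa, Cd74 and H2-Eb1 were called in neither comparison with mCherry HFD, and Ctsd fell in TertCi HFD. With free RNA of either window subtracted, Lgals3 and Cd74 kept the call for TertCi, and none of these genes kept it for Tert.

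Empty droplets, which lie outside the comparisons of nuclei, held the 6 gate genes above the standard-diet mice in every high-fat library: 3363 CPM in mCherry HFD rep128, 2906 in rep129, 652 in Tert HFD rep134, 798 in rep136, 397 in TertCi HFD rep138 and 405 in rep140.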

How the results depend on the processing

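Mice could not be paired between groups because the groups share no replicate numbers, while the interaction fit paired LAM and resident nuclei within each mouse. The fit on the 3 high-fat groups alone is the fit reported, and the diet comparison of genes was not run. The window of 10 to 100 UMIs was the planned one, and that of 50 to under 500 was added after the data had been seen. The cause of the changes below was not tested. In Tert HFD against mCherry HFD the count of genes was 182 with DESeq2, 432 with doublets removed, 1 and 503 with free RNA of 10 to 100 and of 50 to under 500 UMIs subtracted, 332 above the common limit and 287 to 847 with a mouse left out. In TertCi HFD these counts were 372, 868, 39, 731, 637 and 344 to 1905, and 816 with a UMI minimum per library. Between Tert HFD and TertCi HFD the count was 6 without a low-count filter, 1 with at least 3 LAM genes, 1 with free RNA of 50 to under 500 UMIs subtracted, 11 above the common limit and 0 to 14 with a mouse left out. The interaction counts were 24 and 175 with DESeq2, 11 and 25 with free RNA of 10 to 100 UMIs subtracted, 83 and 175 with that of 50 to under 500, 12 to 267 and 226 to 553 with a mouse left out, and 137 for Tert with a UMI minimum per library. With relative log expression factors, 166 genes were higher and 656 lower in Tert HFD and 385 and 849 in TertCi HFD, and with DESeq2 84 and 98, and 151 and 221.

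For the share of all nuclei the exact permutation p was 0.105 above the own-library limit and 0.009524 to 0.0667 with a mouse left out (0.0667 without either mCherry SD mouse). The log2 ratio of mCherry HFD to mCherry SD was 9.12 with at least 3 LAM genes and 5.45 above the own limit, that of Tert HFD to mCherry HFD was -0.81 above the own limit, and that of TertCi HFD was -4.17 thinned and -1.36 above the own limit. For the share of macrophage nuclei, mCherry HFD to SD was 4.93 with 2000 UMIs, 6.71 with at least 3 genes and 3.04 above the own limit. Tert HFD to mCherry HFD was -1.42 with 2000 UMIs, -2.00 with 3 genes, -1.87 above the common limit and 0.40, the opposite direction, above the own limit. TertCi HFD was -2.08, -2.72, -2.10 with a UMI minimum per library, -2.84 thinned and -0.14 above the own limit, and Tert HFD to TertCi HFD was 1.02 thinned and 0.30 above the common limit. Acsl1, Tert HFD against mCherry HFD, turned to -0.072 and -0.62, and Acsl1, TertCi HFD against mCherry HFD, to -0.18 and -1.19 with free RNA of the 2 windows subtracted and Apoe to 0.32 in Tert HFD. Trhde, Tert HFD against mCherry HFD, turned to -5.35 with the first window. Groups held 2 mice each and Tert HFD rep136 held 69 members, and the part of depth in the calls was not tested.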
